A study of Mus musculus with 6 samples.

Results

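Pla2g2a encodes the group IIA secreted phospholipase A2, and it was followed here as a single gene, 1 of 24956 listed by symbol, in RNA from intestinal organoids of Apc Min mice. It was chosen because its level moved against that of other Paneth cell genes, so its own levels and those of the Paneth cell products are given as a description, with no test. The control group was 3 Apc Min organoid cultures given the control treatment, and the treated group was 3 Apc Min cultures given DM-aKG, a dimethyl ester of α-ketoglutarate that enters cells. All 6 libraries thus carry the Apc Min genotype, in which a nonsense mutation of Apc weakens the destruction of β-catenin. No source used here states the dose, the duration, what the controls received or the mouse strain. Replicates are termed biological with no word on whether each came from another mouse, so p-values measure the spread between these cultures, which may be technical. Values are RPKM, reads scaled by gene length and by the depth of the library, and differences are on the log2(RPKM + 0.5) scale, which understates the change of low genes.

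Secreted phospholipases A2 cut the fatty acid at the middle position of membrane phospholipids and release it together with a lysophospholipid. Arachidonic acid freed in this way feeds the cyclooxygenases and lipoxygenases that make prostaglandins and leukotrienes. In the mouse intestine the group IIA enzyme is stored in Paneth cell granules, where it kills Gram-positive bacteria beside lysozyme and the α-defensins. Pla2g2a was identified as the Mom1 locus, a modifier of tumour number in Min mice, and the C57BL/6 strain, on which Min mice are commonly kept, carries a disrupted copy of it.

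The reference assembly is of C57BL/6J, and its annotations record the disruption. On GRCm38, the assembly that the build name mm10 stands for, Pla2g2a lies on the plus strand at chr4:138831857-138835186. RefSeq lists it there as a transcribed pseudogene and GENCODE as a polymorphic pseudogene. GENCODE holds a model that reads through the coding exons (788 bases) and another that skips 4 bases of the genome (784 bases). Read from the common start codon, the uninterrupted model meets a TGA stop after 68 codons, at position 138833284. The model that skips the 4 bases runs on for 145 codons, to a TGA at position 138834890. The stretch of the uninterrupted model from chr4:138832983-138833036 (plus strand, GENCODE transcript sequence, 5′ to 3′) is shown because it holds that point, with the 4 skipped bases in capitals.
Pla2g2a coding stretch: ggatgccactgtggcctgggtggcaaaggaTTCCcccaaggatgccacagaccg
RPKM does not show which allele these organoids transcribed, so the values below are levels of RNA from the locus, not of a functional enzyme.

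Pla2g2a RNA was scarce in the control organoids and higher in every DM-aKG library. The controls held 0.15, 0.41 and 0.19 RPKM in replicates 1, 2 and 3. The DM-aKG libraries held 1.25, 4.30 and 5.17 RPKM. The groups did not overlap, and the lowest DM-aKG library was 3.05 times the highest control. Within the DM-aKG group replicate 1 stood well below replicates 2 and 3, and within the control group replicate 2 was the highest. The group means were 0.250 ± 0.140 and 3.57 ± 2.06 RPKM (mean ± SD, n = 3), a ratio of 14.3, and the log2 difference was 2.29 ± 0.40 (limma coefficient ± SE). Of 10852 genes with a mean of at least 1 RPKM, 0.323% had a larger log2 difference, while 18.3% had a lower mean level in DM-aKG. Pla2g2a reached that minimum only through the DM-aKG libraries, so its difference was in part a condition of its being counted.

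**Figure D1:**
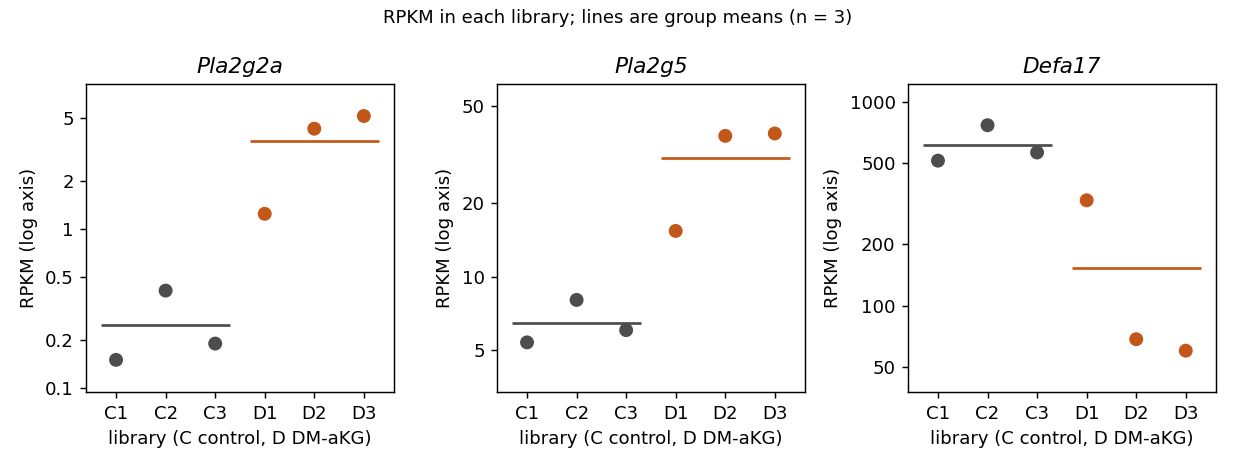
RPKM of Pla2g2a, Pla2g5 and the defensin gene Defa17 in each library (log axes; C, control; D, DM-aKG; numbers are replicates; lines, group means of n = 3). DM-aKG replicate 1 is the lowest of its group for Pla2g2a (1.25) and Pla2g5 (15.39) and the highest of its group for Defa17 (329.55).

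The low values rest on few reads. Library depth, estimated from the RPKM steps of small RNA genes, was 32.7 to 34.2 M reads, at which a transcript of 788 bases makes the control values 4, 11 and 5 reads and the DM-aKG values 34, 111 and 133 reads. The 95% exact Poisson intervals, which cover counting error only and take the estimated depth as given, ran from 0.207 to 0.741 RPKM in control replicate 2 and from 0.873 to 1.76 RPKM in DM-aKG replicate 1. In DM-aKG replicate 2 the interval was 3.53 to 5.17 RPKM. These intervals give the precision of single libraries and do not compare the groups.

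Other products of Paneth cells went the opposite way. Among 35 listed (lysozyme, angiogenin 4, intelectin, matrilysin and others, with every Defa symbol), 20 passed the filter, and their log2 differences ran from -2.45 to -0.47 with a median of -1.66, beside 2.29 for Pla2g2a and a median of 0.02 over all tested genes. The opposition to these genes is what picked Pla2g2a out, so their values are shown and nothing further is read from their direction. Defa17, an α-defensin, held 515.94, 770.21 and 565.85 RPKM in the controls and 329.55, 68.54 and 60.21 in DM-aKG. Lyz1, which encodes lysozyme, held 303.98, 363.40 and 301.72 RPKM in the controls and 232.33, 114.63 and 112.77 in DM-aKG. In both genes every DM-aKG library lay below every control. Habp2, a serine protease gene with a low mean RPKM like Pla2g2a, held 2.64, 3.63 and 3.06 RPKM in the controls and 0.58, 0.19 and 0.28 in DM-aKG. Ang4, an angiogenin of Paneth granules, was at 52.38 RPKM in DM-aKG replicate 1, inside the control range of 39.29 to 58.11, and at 13.23 and 12.65 in replicates 2 and 3. Defensin copies are nearly identical and their reads may have been divided among them, so single defensin levels are uncertain.

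The libraries stood in a mirrored order within DM-aKG. Replicate 1 was the highest of the 3 DM-aKG libraries in 20 of 20 tested Paneth products (45.8% of all tested genes) and the lowest for Pla2g2a (37.4% of all tested genes). Among the controls replicate 2 was instead the highest in 19 of the 20 products (38.6% of all tested genes) and for Pla2g2a as well. For Pla2g2a that rank rested on 11 reads against 4 and 5. The counting intervals of control replicates 1 (0.0417 to 0.392 RPKM) and 3 (0.0629 to 0.452) overlapped that of replicate 2 (0.207 to 0.741). The control order of Pla2g2a is therefore uncertain. Without DM-aKG replicate 1 the log2 difference of Pla2g2a was 2.81. The Paneth products helped choose Pla2g2a, and defensin copies may share reads, so this order is a description and no test. The percentages over all tested genes mix genes that rose with genes that fell, so they are no matched base for it. With 3 libraries a group, no correlation within a group was computed. In bulk RNA, fewer Paneth cells and less Paneth RNA per cell cannot be told apart.

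**Figure D2:**
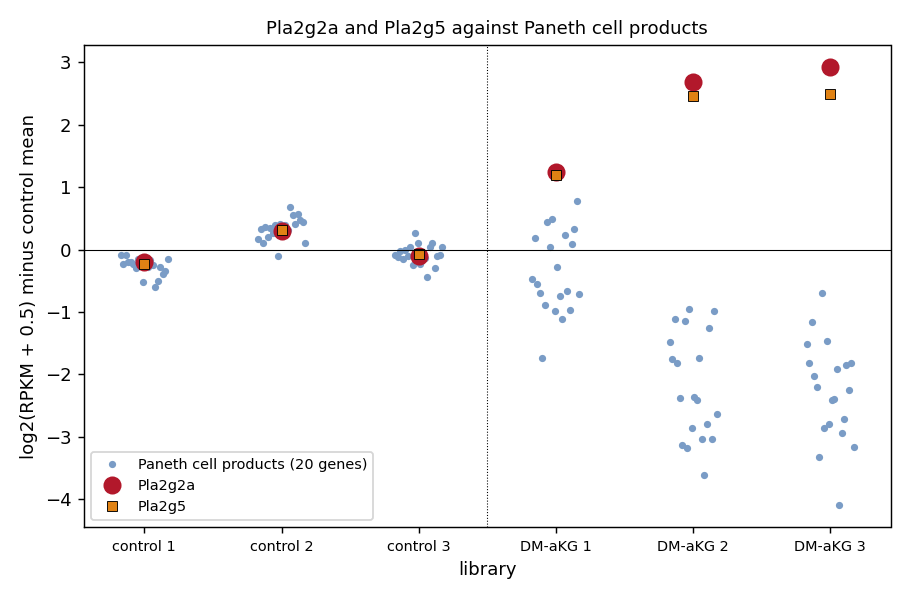
Log2(RPKM + 0.5) of each gene minus its control mean, by library. Pla2g2a (red) and Pla2g5 (orange) lie above the 20 tested Paneth cell products (blue) in all 3 DM-aKG libraries, with the smallest separation in DM-aKG replicate 1, and among them in the controls.

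Most tested regulators and markers of the secretory lineage also fell. Of 12 tested Paneth regulators and surface markers (15 listed), 9 fell, 1 rose and 2 did not pass limma's threshold (adjusted p under 0.05), with a median of -1.0. Of all tested genes 24.7% fell and 30.9% rose, 55.6% together. Kit, a receptor tyrosine kinase found on Paneth and goblet type cells, fell from 7.85 ± 0.990 to 1.57 ± 0.308 RPKM (adjusted p = 1.96e-05 by limma). Bhlha15, a transcription factor of secretory cells also called Mist1, fell from 10.3 ± 0.463 to 3.31 ± 0.502 RPKM, Spdef from 3.54 ± 0.153 to 0.737 ± 0.278 RPKM and Cd24a from 225 ± 7.01 to 97.7 ± 15.2 RPKM. Ephb3, the receptor that holds Paneth cells at the crypt base, fell by 1.09 ± 0.06 on the log2 scale. Fzd5 rose by 0.20 ± 0.05 (adjusted p = 0.00809, limma), and Sox9 (-0.21) and Atg16l1 (-0.01) did not pass. Of 10 tested goblet genes (12 listed) 7 fell, 0 rose and 3 did not pass (24.7% and 30.9% of all tested genes fell and rose), with a median of -1.34, and the mucin gene Muc2 fell from 6.74 ± 0.161 to 1.51 ± 0.467 RPKM. The goblet genes that did not pass were Clca1 (0.32), Zg16 (0.07) and Sytl2 (-0.14). Pla2g2a was higher in the libraries in which most of these genes of Paneth and goblet cells were lower. It was chosen for moving against Paneth cell genes, so that contrast is a description and no test.

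Among the genes that moved most like Pla2g2a was the gene around it. Pla2g5 encodes the group V secreted phospholipase A2 and lies on the minus strand at chr4:138799244-138863482. Pla2g2a sits whole within an intron of Pla2g5 of 39807 bases, on the other strand, 12599 bases from the nearest Pla2g5 exon on one side and 23878 on the other, and no exons overlap. Only Pla2g5 transcripts that begin at the far start (position 138863469) cross Pla2g2a, and those from the near start (position 138819257) do not reach it. The 250 bases before both starts are shown because transcription from them differs in this respect (RefSeq, GRCm38.p6, minus strand, 5′ to 3′). Capitals mark matches to a loose NF-κB pattern (GGG, any 5 bases, CC) that 45.8% of 32851 RefSeq windows of this length hold on either strand.
Pla2g5 far start, chr4:138863470-138863719: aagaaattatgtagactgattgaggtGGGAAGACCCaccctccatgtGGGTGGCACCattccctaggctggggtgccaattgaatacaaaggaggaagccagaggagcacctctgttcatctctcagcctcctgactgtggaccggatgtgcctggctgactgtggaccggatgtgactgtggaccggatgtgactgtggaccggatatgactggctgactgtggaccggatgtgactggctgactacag
Pla2g5 near start, chr4:138819258-138819507: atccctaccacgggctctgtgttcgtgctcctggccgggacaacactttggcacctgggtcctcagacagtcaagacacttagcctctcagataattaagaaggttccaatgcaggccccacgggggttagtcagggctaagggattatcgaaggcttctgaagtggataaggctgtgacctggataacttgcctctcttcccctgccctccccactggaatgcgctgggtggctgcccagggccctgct
The far start had 2 matches and the near start 0. Neither window held the AP-1 pattern TGANTCA (6.75% of windows), the antioxidant response core TGACNNNGC (10.2%), the TCF pattern CTTTGNT (16.0%) or the STAT pattern TTCNNNGAA (7.02%), on either strand. AP-1 and antioxidant response matches can overlap, since both can begin with TGA. These letters describe the windows only.

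Pla2g5 rose in DM-aKG from a level well above that of Pla2g2a. It held 5.38, 8.03 and 6.04 RPKM in the controls and 15.39, 37.71 and 38.57 RPKM in DM-aKG. The groups did not overlap, control replicate 2 was again the highest control, and DM-aKG replicate 1 again lay apart from replicates 2 and 3. The mean rose from 6.48 ± 1.38 to 30.6 ± 13.1 RPKM, with a log2 difference of 2.06 ± 0.33 (adjusted p = 0.00146, limma). By Euclidean distance between profiles of log2(RPKM + 0.5) over the 6 libraries, each centred on its mean, Pla2g5 was the nearest of 10851 genes to Pla2g2a, at 0.401. That rank depended on the setting, in alternatives added after the data were seen. Pla2g5 ranked 7 with a pseudocount of 0.1, 2 without control replicate 2 and 6 without DM-aKG replicate 1, and stayed first with a pseudocount of 1, with no filter on low values and without any other single library. At a pseudocount of 0.5 with all libraries, next came Acta1 (skeletal muscle α-actin) at 0.511, Plat (tissue plasminogen activator) at 0.839, Plaur (the urokinase receptor) at 0.891 and Crip2 (a LIM domain protein) at 0.911. Acta1, for example, held 57.63, 55.45 and 59.73 RPKM in the controls and 166.74, 427.32 and 447.07 in DM-aKG. These 4 genes were picked by their likeness to Pla2g2a and get no test.

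No source used here states whether the libraries kept the strand of the RNA. If they did not, reads from the Pla2g5 intron and reads of Pla2g2a cannot be told apart. Per length, Pla2g2a stood at 2.79%, 5.11% and 3.15% of Pla2g5 in control replicates 1, 2 and 3 and at 8.12%, 11.4% and 13.4% in DM-aKG replicates 1, 2 and 3. The share was therefore not constant, and its groups did not overlap. The part that Pla2g5 reads have in the Pla2g2a values was not tested.

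Apart from Pla2g5, the tested members of the family showed smaller log2 differences. Of 11 other secreted phospholipases A2, 5 passed the filter, of which Pla2g5 rose, Pla2g12a fell and 3 did not pass the threshold. The share called among all tested genes was 55.6%. The median log2 difference was 0.22, beside 0.02 over all genes. Pla2g2d, whose enzyme is known from lymphoid tissue, held 2.04, 2.32 and 1.92 RPKM in the controls and 2.16, 3.01 and 3.08 in DM-aKG (adjusted p = 0.0649, limma). Pla2g2f, known from skin, held 2.41, 3.01 and 2.27 RPKM in the controls and 1.79, 3.42 and 3.16 in DM-aKG (adjusted p = 0.779, limma). In both genes the groups overlapped, and DM-aKG replicate 1 was the lowest of its group, as for Pla2g2a. Without DM-aKG replicate 1, limma put 5 of the 5 tested members past the threshold, 4 higher and 1 lower. Over all genes that setting called 3660 higher and 3200 lower, against 3354 and 2679 with all libraries. Without any other single library 2 members were called. Pla2g12b, a catalytically inactive relative, held 12.74, 11.49 and 12.15 RPKM in the controls and 12.40, 14.83 and 15.52 in DM-aKG (adjusted p = 0.0560, limma). Pla2g12a, the broadly expressed group XIIA enzyme, fell from 25.9 ± 1.73 to 20.1 ± 0.562 RPKM (adjusted p = 0.00121, limma).

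Members below the filter were not tested. Pla2g10, the group X enzyme of gut epithelium, held 0.47, 0.43 and 0.33 RPKM in the controls and 0.13, 0.03 and 0.03 in DM-aKG. Pla2g1b, the digestive enzyme of pancreatic juice, held 0.62, 1.18 and 0.81 RPKM in the controls and 0.32, 0.04 and 0.15 in DM-aKG. In both genes all DM-aKG values lay below all control values, the reverse of Pla2g2a. Pla2g2e held 0.21, 0.00 and 0.11 RPKM in the controls and 0.24, 0.29 and 0.47 in DM-aKG, and Pla2g3 was likewise higher in every DM-aKG library, while Pla2g2c stayed at or below 0.02 and Oc90 was listed at 0. Among tested genes the groups did not overlap in 64.2%, with DM-aKG higher in 35.3% and lower in 28.9%.

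Genes farther along chromosome 4 moved in both directions. Of 21 protein-coding genes that start within 500 kb of Pla2g2a in RefSeq, 14 passed the filter; 4 rose, 3 fell and 7 did not pass the threshold, so 7 of 14 were called where the share over all genes was 55.6%. The median was 0.08. Rnf186, a ubiquitin ligase gene 135.3 kb above Pla2g2a at chr4:138967112-138968360, held 36.26, 62.19 and 40.06 RPKM in the controls and 11.32, 8.20 and 8.52 in DM-aKG (adjusted p = 1.09e-04, limma). Its log2 difference of -2.22 ± 0.20 was the lowest of the neighbours. Nbl1, which encodes a secreted antagonist of BMP ligands and lies 250.4 kb above, held 1.03, 1.18 and 1.23 RPKM in the controls and 4.07, 5.83 and 5.18 in DM-aKG (adjusted p = 3.86e-05, limma). The actin capping gene Capzb rose by 0.31 ± 0.05 and the cytidine deaminase gene Cda by 0.22 ± 0.06 on the log2 scale. The call of Cda was lost without control replicate 1 or 2 or DM-aKG replicate 2 or 3 (adjusted p from 0.0525 to 0.0574 by limma). It was also lost with quantile normalization (adjusted p = 0.0652 by limma). The aldo-keto reductase gene Akr7a5 fell by 0.29 ± 0.06 and Tmco4 fell by 0.18 ± 0.06, a call lost without control replicate 3 (adjusted p = 0.0979 by limma). The Tmco4 call was also lost with rescaling to an equal sum (adjusted p = 0.0632 by limma). Otud3, the nearest tested gene above the cluster, was at 11.2 ± 0.256 RPKM in the controls and 11.6 ± 1.55 in DM-aKG (adjusted p = 0.723, limma). Mul1, Camk2n1, Minos1 and Pqlc2 had log2 differences from -0.08 to 0.13 and did not pass. Without DM-aKG replicate 1, limma put 11 of the 14 past the threshold, 8 higher and 3 lower. Calls over all genes rose as well in that setting, to 3660 higher and 3200 lower from 3354 and 2679. Without any other single library 6 of the neighbours were called.

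**Figure D3:**
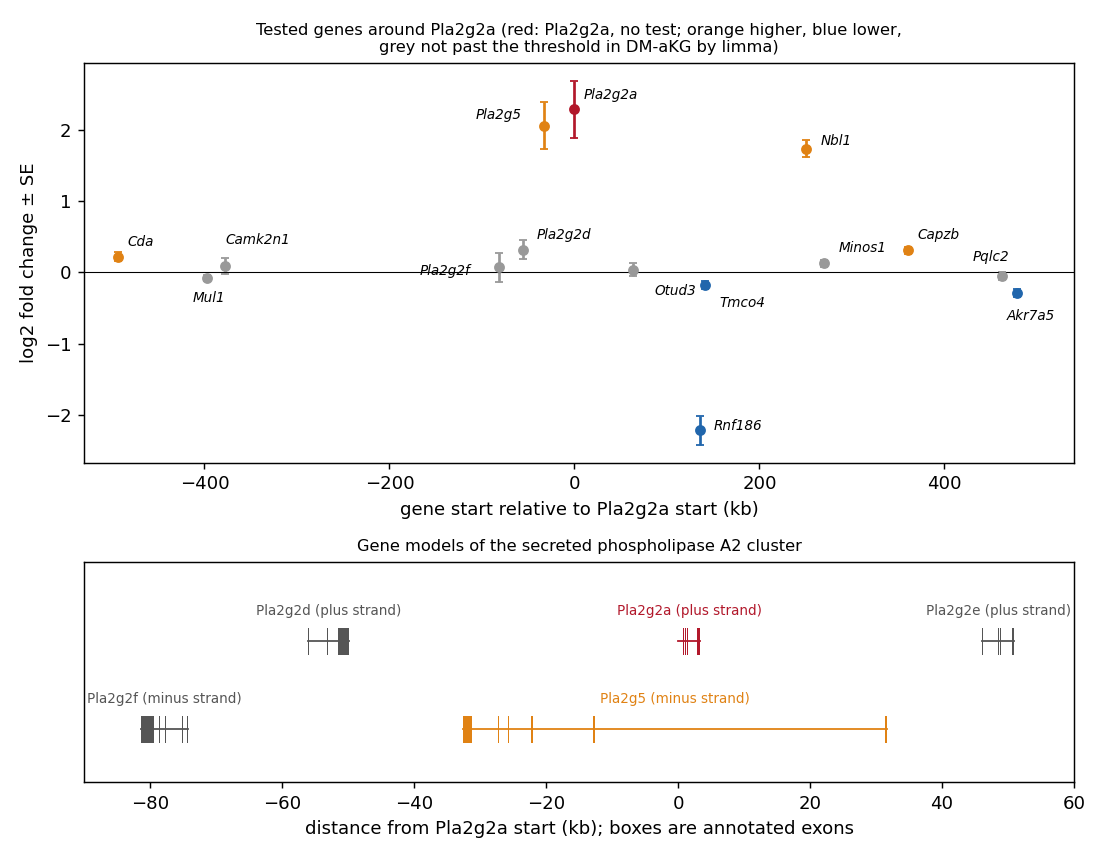
Upper panel, log2 difference (limma coefficient ± SE) of tested genes within 500 kb of Pla2g2a, against the distance of their starts in kb; lower panel, annotated exons of the secreted phospholipase A2 cluster by distance from the Pla2g2a start. Pla2g2a (2.29) and Pla2g5 (2.06) stand together above the cluster members Pla2g2d (0.32) and Pla2g2f (0.07), and Rnf186 (-2.22) lies far below.

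Phospholipases A2 of other kinds, listed with some related genes, had log2 differences from -0.72 to 0.39. Of 12 tested (22 symbols listed), 2 rose, 2 fell and 8 did not pass, with a median of 0.09. The symbol Plaat3 was not matched, but it is another name of Pla2g16, which was listed and tested. The 4 called are a smaller share than the 55.6% of all tested genes. Pla2g4a, the cytosolic enzyme that frees arachidonic acid for prostaglandin synthesis and whose loss lowers tumour load in Min mice, held 7.92, 8.57 and 7.41 RPKM in the controls and 7.28, 3.52 and 3.80 in DM-aKG. The log2 difference was -0.72 ± 0.23 (adjusted p = 0.0270 by limma), with DM-aKG replicate 1 just below the controls. That call was lost without any single library other than DM-aKG replicate 1 (adjusted p from 0.0574 to 0.0901). Pafah1b3, a subunit of platelet-activating factor acetylhydrolase, fell from 46.8 ± 1.81 to 28.5 ± 0.447 RPKM. Prdx6, a peroxiredoxin with phospholipase A2 activity, rose from 100.1 ± 0.897 to 131.5 ± 15.5 RPKM. Plaa, named for a phospholipase A2-activating protein and not itself such an enzyme, rose by 0.24 ± 0.04 on the log2 scale.

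Possible partners at the cell surface were measured as well. The receptor gene Pla2r1 was at 0.02 RPKM or less in every library. Of 15 listed binding partners 6 passed the filter, with 4 higher and 2 lower, where 30.9% and 24.7% of all tested genes were. The heparan sulfate proteoglycan gene Sdc1 rose from 73.7 ± 3.26 to 138.7 ± 15.7 RPKM (adjusted p = 1.11e-04, limma) and Sdc4 fell from 47.8 ± 4.09 to 33.6 ± 3.05 RPKM. Itgav, an integrin subunit to which the group IIA enzyme is known to bind in its pairing with Itgb3, rose from 4.41 ± 0.282 to 6.79 ± 0.282 RPKM, while Itgb3 itself was at 0.01 RPKM or less.

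Downstream of phospholipase A2, 15 of 38 eicosanoid genes passed the filter, and 7 rose, 3 fell and 5 did not pass, with a median of 0.20. The share called was near the 55.6% of all tested genes. Abcc4, an exporter of prostaglandins and other anions, rose from 3.32 ± 0.252 to 10.4 ± 1.73 RPKM (adjusted p = 4.26e-05, limma). Slco2a1, the prostaglandin uptake carrier, rose from 1.34 ± 0.127 to 2.53 ± 0.110 RPKM and Cbr1, a carbonyl reductase that can act on prostaglandin E2, from 196 ± 6.96 to 376.6 ± 50.7 RPKM. Ptgds, a prostaglandin D2 synthase, fell from 2.38 ± 0.860 to 0.300 ± 0.121 RPKM and Lta4h, which makes leukotriene B4, from 80.9 ± 1.67 to 60.9 ± 4.30 RPKM. The cyclooxygenases were scarce and not tested. Ptgs2 held 0.01, 0.02 and 0.05 RPKM in the controls and 0.98, 0.25 and 0.30 in DM-aKG, with replicate 1 the highest where it was the lowest for Pla2g2a. Ptgs1 did not exceed 0.11 RPKM, and the receptor genes Ptger2, Ptgfr, Ptgir and Cysltr1 were listed at 0 in all 6 libraries.

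The lysophospholipid left by the reaction is handled by acyltransferases, and the freed fatty acid by acyl-CoA synthetases. Of 17 tested genes in this list (24 listed), 6 rose, 6 fell and 5 did not pass (55.6% of all tested genes were called), with a median of 0.03. The acyltransferase genes Lpcat4 and Mboat1 both rose, Lpcat4 from 11.3 ± 0.632 to 30.3 ± 7.02 RPKM and Mboat1 from 11.2 ± 0.240 to 22.5 ± 1.29. Lpcat3, which places arachidonate into phospholipids, fell from 122 ± 1.03 to 83.8 ± 1.71 RPKM (adjusted p = 3.34e-05, limma). The synthetase genes Acsl3 and Acsl4 fell by 0.90 ± 0.09 and 0.58 ± 0.08 on the log2 scale. Within DM-aKG, Lpcat4 was lowest in replicate 1 as Pla2g2a was, with 22.25 RPKM in DM-aKG replicate 1 and 33.79 and 34.93 in replicates 2 and 3, but the order of its controls differed.

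**Figure D4:**
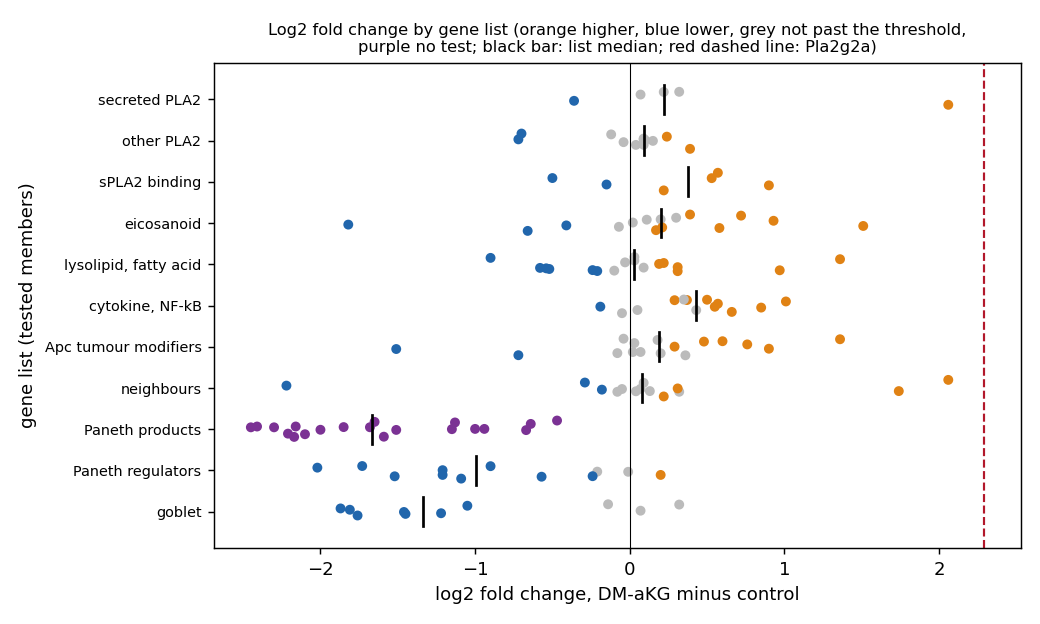
Log2 difference of each tested gene by list (orange, higher and blue, lower by limma; grey, not past the threshold; purple, Paneth products, shown with no test; black bars, list medians). The dashed line marks Pla2g2a at 2.29, beyond every plotted gene; Pla2g5 (2.06) is nearest, and the Paneth products have a median of -1.66.

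Inflammatory cytokines are known to induce Pla2g2a, and genes of the cytokine and NF-κB response were listed for that reason. Of 13 tested (29 listed), 8 rose, 1 fell and 4 did not pass, with a median of 0.43, beside 30.9% higher and 24.7% lower among all tested genes. Nfkbia, the NF-κB inhibitor that NF-κB itself induces, rose from 14.0 ± 1.45 to 28.8 ± 4.25 RPKM (adjusted p = 2.85e-04, limma). Relb rose from 7.94 ± 0.132 to 14.8 ± 1.90 RPKM, Nfkb2 from 9.99 ± 0.425 to 15.1 ± 1.72 RPKM, Rela from 16.3 ± 0.830 to 21.1 ± 0.990 RPKM and the transcription factor gene Cebpb from 11.8 ± 1.32 to 18.9 ± 2.03 RPKM. Of 16 members below the filter, 8 did not overlap and were higher in DM-aKG (35.3% of tested genes), among them the nitric oxide synthase gene Nos2, at 0.05 to 0.09 RPKM in the controls and 0.37 to 0.66 in DM-aKG. The cytokine genes Tnf and Il33 were also among them. Tnf held 0.18, 0.11 and 0.17 RPKM in the controls and 0.58, 0.96 and 0.70 in DM-aKG. Il33 held 0.06, 0.09 and 0.02 RPKM in the controls and 0.71, 0.25 and 0.27 in DM-aKG. Il18, which was tested, rose by 0.55 ± 0.13 on the log2 scale (adjusted p = 0.00844, limma). In Il1a the groups overlapped. Il6, Lcn2, Saa1 and Saa2 were listed at 0 throughout, and Il1b did not exceed 0.02 RPKM.

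Genes whose loss or dose is known to alter tumour number in Apc mutant mice were set beside Pla2g2a. Of 16 tested (22 listed, 7 of them also in other lists above), 6 rose, 2 fell and 8 did not pass, with a median of 0.19. The 8 called were close to the share over all tested genes, 55.6%. The stem cell adhesion gene Cd44 rose from 13.6 ± 0.425 to 25.8 ± 0.733 RPKM and Cdkn1a, the p21 gene, from 64.4 ± 7.35 to 167 ± 33.9 RPKM. Egfr rose by 0.76 ± 0.08, Ppard by 0.60 ± 0.09 and Pparg by 0.48 ± 0.07 on the log2 scale. The lower members were Pla2g4a and Mmp7, the matrilysin counted among the Paneth products above. Mmp7 is in these counts, but those products helped choose Pla2g2a, so its fall is a description and no test. Dnmt1 was at 19.2 ± 0.501 RPKM in the controls and 19.4 ± 0.210 in DM-aKG (adjusted p = 0.753, limma).

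Epithelial markers were abundant in all libraries, with a summed level of 2918 to 2966 RPKM over 9 genes in the controls and 3732 to 4638 in DM-aKG. The higher sum came mainly from the keratin genes Krt8, Krt18 and Krt19, and of the 9 genes 5 rose and 3 fell (Epcam, Cdx1 and Cdx2). Stromal markers summed to 2.89 to 3.22 RPKM over 11 genes in the controls and 4.59 to 5.28 in DM-aKG, most of it Vim, with Col3a1, Dcn and Lum listed at 0. Immune markers summed to 1.85 to 2.01 RPKM over 13 genes in the controls and 2.30 to 3.57 in DM-aKG, with Ptprc, which marks leukocytes, at 0.01 RPKM or less and Cd4, Cd8a, S100a8 and S100a9 listed at 0. These sums were higher in DM-aKG, as was Pla2g2a, and their part in its level was not tested. Over all 10852 tested genes 3354 rose and 2679 fell, and with each library centred on its median the split was 2790 and 3340.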

How the data were processed

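RNA-seq of 6 organoid libraries was deposited by the authors as a table of RPKM values with 2 decimals. The submitters' processing notes name CASAVA 1.8, HISAT2 2.0.4, Partek and the build mm10. No source used here states the role of each tool, the gene annotation, the strand setting or how multiply mapped reads were treated. Antisense or intronic reads of an overlapping gene can therefore enter a value. RPKM are relative to the library, so a large change of abundant genes shifts all others slightly.

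Genes with a mean of at least 1 RPKM over the 6 libraries (10852) entered a limma 3.58.1 comparison (R 4.3.3) on log2(RPKM + 0.5) (variance trend, two-sided, Benjamini-Hochberg adjustment over all tested genes, threshold 0.05). Lists are given as counts and medians, with no set test. Named genes are Pla2g2a, the tested Paneth products, secreted phospholipases A2 and neighbours, up to 5 called members of each other list by p, and the 5 nearest profiles. Genes below the filter and other examples were chosen after their values were seen. The gene and the lists were chosen with earlier results of these data known. Depth was taken as the value that puts most small RNA genes (miRNA, snoRNA; up to 150 bases) at 1 read. Of their other values up to 5 reads, 92.3% to 97.1% came out whole within 0.05 reads. The comparison was tested on simulated data with 200 of 10852 genes changed 2-fold or 4-fold and noise drawn independently for each value. It recovered 98.11% of the 2-fold and 100% of the 4-fold changes, with 8 false calls among 206. Far fewer genes changed there than were called in the data (55.6%). The simulation therefore does not show how the comparison performs on changes this broad. Alternatives were other pseudocounts, filters, scalings, weights, a replicate block and leaving out libraries. Positions come from GENCODE and RefSeq on GRCm38. Python 3.11.15 and matplotlib 3.10.9 drew the figures.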

Additional observations from a re-analysis of the deposited data

How the results depend on the processing

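The log2 difference of Pla2g2a was positive under all 16 alternatives. It moved from 2.29 to 3.24 with a pseudocount of 0.1 and to 1.75 with a pseudocount of 1, and ranged from 1.97 to 2.96 with libraries left out. With a minimum mean of 3 RPKM the gene was not retained. With no filter on low values 5 secreted phospholipases A2 (2 in the main comparison) and 15 cytokine genes (9) were called. Rescaling to an equal sum gave 4 secreted and 8 other phospholipases A2 (4). Array weights gave 20 Paneth products (12), 5 secreted and 9 other phospholipases A2 and 13 neighbours (7). Over all genes, no filter called 3783 higher and 2832 lower, the equal sum 3809 and 2254, and array weights 4149 and 3563. The main comparison called 3354 and 2679. With libraries left out, calls ranged from 9 to 20 Paneth products, 2 to 5 secreted phospholipases A2 and 6 to 12 neighbours, each highest without DM-aKG replicate 1, alone or with control replicate 2. Over all genes, higher calls then ranged from 2699 to 3721 and lower calls from 2049 to 3270. Both were highest without control replicate 2 and DM-aKG replicate 1. The Paneth counts are no test, since those genes helped choose Pla2g2a. The cause was not tested. Pla2g2f turned to -0.07 and -0.02 without DM-aKG replicate 2 or 3. Otud3 turned to -0.01 with median centring and without DM-aKG replicate 3, and to -0.02 with quantile normalization and without DM-aKG replicate 2. With other libraries left out Pla2g2f reached 0.42 and Otud3 0.17, both without control replicate 2 and DM-aKG replicate 1 and both past the threshold. Same-numbered libraries did not deviate together (r = -0.083, -0.114 and 0.011). Whether same-numbered cultures shared a mouse or a batch stays unknown, because cultures of a shared origin need not deviate together. With the replicate block Pla2g2a stayed at 2.29, and 3206 higher and 2542 lower genes were called. Of the named genes the block changed only the call of Defa20, which passed. Defa20 is a Paneth product, so that call is no test either. Depth limits the control values of Pla2g2a to 4 to 11 reads.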
